A study of Mus musculus with 9 samples.

Results

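The genes described are 43 enzymes, carriers, regulators and receptors that make, modify, move, break down or sense sphingolipids and ceramides. They were listed by name for their place in the pathway, with earlier results of these data known, so their counts are a description and not an independent draw. Of the Affymetrix probe sets assigned to a gene alone, the one that was brightest on average across the 9 arrays stood for it. This gave 41 members of 18193 genes measured in all. Ormdl2 and Ormdl3 were skipped because each is read only by a probe set that the platform annotation also gives to another gene. The epidermis came from tamoxifen-treated mice of 2 groups on the hairless SKH1 background (5 backcross generations), 1 mouse per array. The 5 mice of the inactivated group carried both floxed Alox12b alleles (Alox12b fl/fl Cre, p/p +/cre) together with Cre-ERT2, a recombinase that needs tamoxifen and is driven by the keratin 14 promoter of basal keratinocytes. The 4 control mice were littermates with the same floxed alleles and no Cre (Alox12b fl/fl, p/p +/+). Both groups were given 3 injections of 1 mg tamoxifen into the peritoneum at 8 weeks of age, and epidermis was scratched off frozen skin 6 days later. Since the controls had no Cre, effects of losing Alox12b and of Cre activity cannot be told apart.

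Sphingolipid synthesis starts when serine palmitoyltransferase joins serine to palmitoyl-CoA. The product is reduced, given a fatty acid by a ceramide synthase and desaturated or hydroxylated to ceramide. In the upper epidermis ceramides with ultra-long acyl chains are capped with glucose, loaded into lamellar bodies and secreted, and after removal of the glucose they form the water barrier of the skin. Alox12b encodes the lipoxygenase that oxidises the linoleate carried by these acylceramides. Ceramidases release sphingosine from ceramide, and sphingosine kinases turn it into sphingosine 1-phosphate, a signalling lipid with its own receptors.

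Values are the authors' log2 values, with array medians of 4.34 to 4.42 and a highest value of 13.47 to 13.53 on each array. The number of arrays limits the precision. The keratinocyte keratins Krt14, Krt5, Krt1 and Krt10 averaged 13.12, 12.19, 12.86 and 13.31 in the inactivated group, against 12.65, 12.26, 13.02 and 13.49 in the controls, near the top of the range in both groups. Alox12b itself was higher in the inactivated group, at 9.89 ± 0.29 (SD, n = 5) against 9.28 ± 0.10 (SD, n = 4) in the controls (0.61 ± 0.14 SE, limma adjusted p = 0.00694). Whether its only probe set lies inside the floxed exons is not given, so this value checks nothing about the deletion. Inactivated replicate 5 lay nearest the controls on the first principal component, with a score of 25.3 against 44.9 to 55.8 for the other inactivated arrays and -63.0 to -48.6 for the controls. Skeletal muscle markers, on inactivated replicate 4, lay a median of 3.13 above the control mean and adipocyte markers 2.71 above it, where the other inactivated arrays had -0.11 to 0.43 and -0.01 to 0.40. The sex of the mice, read from Xist and Y-linked transcripts, was 3 females and 2 males in the inactivated group, and 1 female and 3 males among the controls.

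In epidermis of the inactivated group, genes of sphingolipid metabolism changed in both directions, and in 3 of 11 families (Cers, Smpd and Sgpp) related members did so too. The first committed enzyme (Sptlc1, Sptlc2), the skin ceramide synthase Cers3, the desaturase and hydroxylase Degs2 and the glucosylceramide synthase Ugcg rose by 0.98 to 2.27 on the log2 scale. The ceramide synthases Cers5 and Cers6, the ceramidase Acer3 and the sphingosine kinase Sphk1 fell by 1.06 to 1.31. In the sphingosine 1-phosphate branch the phosphatase Sgpp2 rose by 1.78.

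Of the 41 members, 11 rose, 17 fell and 13 did not pass (limma, two-sided, Benjamini-Hochberg adjusted p of at most 0.05 over all probe sets). The 28 that passed are 68.3% of the members, and 34.4% of all genes passed by the same rule. Of all genes 15.5% were higher and 18.9% lower. Counts within single roles and families below are to be read beside these shares. Members are brighter than most genes, and among genes with a level above the median of all probe sets 46.2% passed (18.8% higher and 27.4% lower), while 27 of the 39 members above that level did (11 higher and 16 lower). At least 2-fold changes were found in 5 higher and 5 lower members, against 2.43% and 3.34% of all genes. The 5 lower include Sgms2, whose inactivated values were not shown to be above background, so its fold is uncertain. The groups did not overlap in 28 members, and in 31.6% of all genes. The median difference of the members was -0.19, and 0.03 over all genes. The median size of a difference, whatever its sign, was 0.52 for the members and 0.21 for all genes. Of 11 fibroblast markers 10 fell and 1 rose, with linear values that summed to 10040 to 16890 on the inactivated arrays and 18380 to 30670 on the controls. Other marker lists moved as well. Of 7 melanocyte markers 6 rose and 1 did not pass, with sums of 323.6 to 683.0 in the inactivated group and 231.4 to 276.2 in the controls. Of 8 Langerhans cell markers 5 fell and 3 did not pass (8040 to 11530, against 11770 to 13280 in the controls). Of 8 neutrophil markers 3 rose, 1 fell and 4 did not pass (16150 to 20260, against 1235 to 1910 in the controls). These sums mostly reflect S100a8 and S100a9, which averaged 13.19 and 13.12 in the inactivated group, against 9.80 and 8.58 in the controls. Cxcr2 rose by 0.34, Mpo fell by 1.41, and the median difference of the 8 was 0.20. The part of these markers in the members that rose or fell was not tested.

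**Figure D1:**
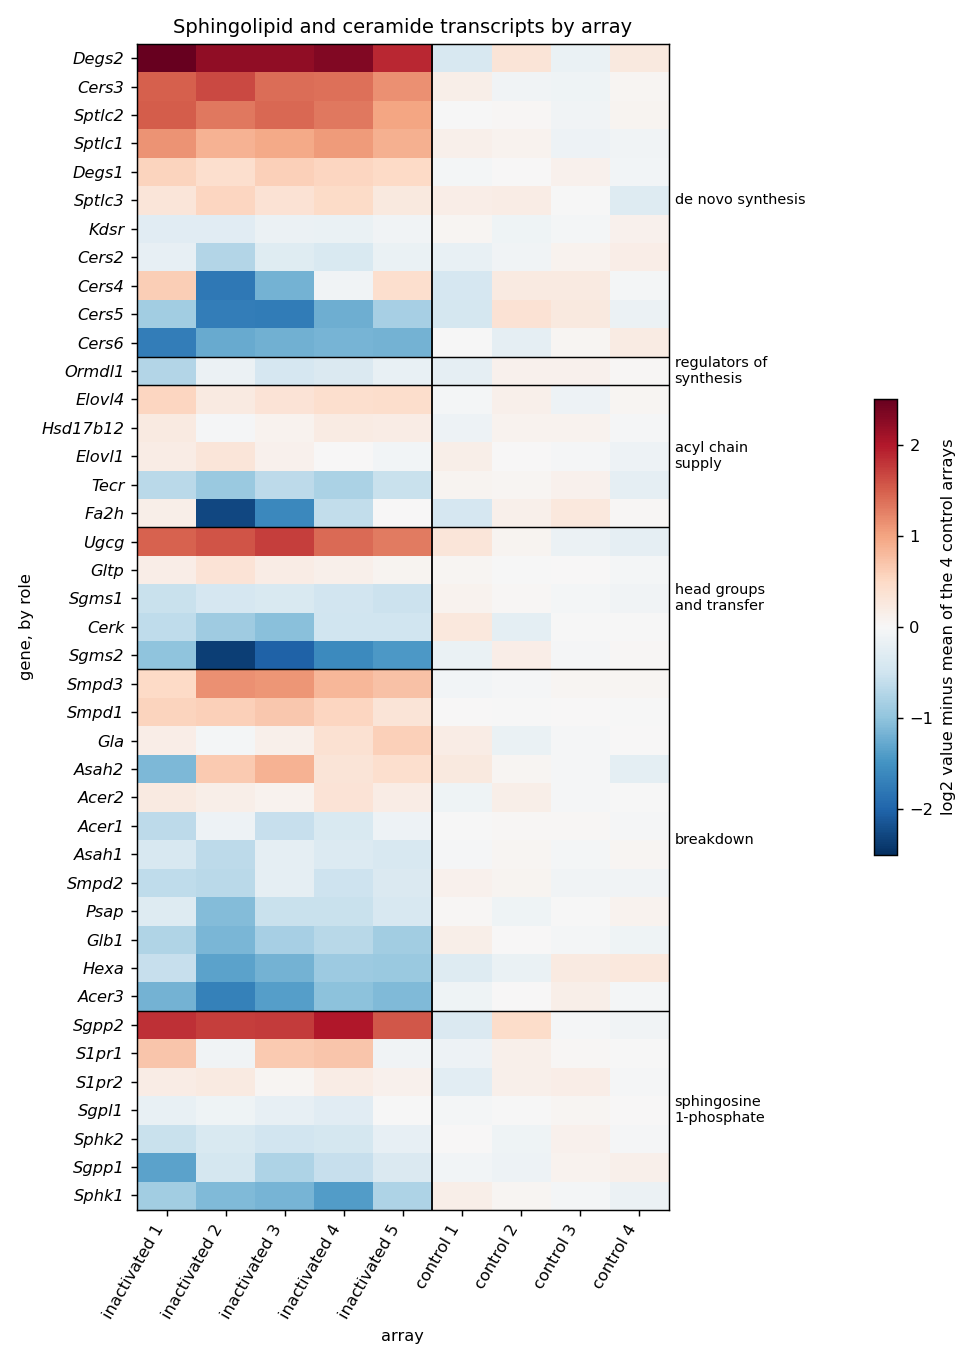
Log2 value of each of the 41 measured genes on each array minus the mean of the 4 control arrays, with the inactivated arrays on the left and genes grouped by role. Degs2, Cers3, Sptlc2, Ugcg and Sgpp2 are red on all 5 inactivated arrays, Cers6, Acer3 and Sgms2 are blue on all 5, and Cers4 and Fa2h range from red or white to dark blue within the inactivated group.

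For serine palmitoyltransferase, the first step, the probe sets that stand for its subunits Sptlc1, Sptlc2 and Sptlc3 all rose, Sptlc3 with the least support. Sptlc1, the subunit that both forms of the enzyme share, lay at 10.71, 10.46, 10.54, 10.66 and 10.48 on the inactivated arrays, against 9.71, 9.68, 9.46 and 9.51 on the controls. Every inactivated array lay above every control, a difference of 0.98 ± 0.08 (SE; adjusted p = 2.48e-05), and the 3 further Sptlc1 probe sets rose by 0.79, 1.07 and 0.88. Sptlc2, the widely expressed catalytic subunit, lay at 9.31, 9.12, 9.24, 9.12 and 8.80 in the inactivated group, against 7.79, 7.83, 7.71 and 7.87 in the controls. These groups did not overlap either, inactivated replicate 5 being the lowest of its group, and Sptlc2 rose 2.49-fold (1.32 ± 0.10, adjusted p = 1.26e-05). A further Sptlc2 probe set rose by 0.59, and another, at 0.29, did not pass. Sptlc3, the alternative catalytic subunit, which makes shorter sphingoid bases, was 9.69 to 9.97 in the inactivated group and 9.11 to 9.61 in the controls, a rise of 0.38 ± 0.11 (adjusted p = 0.0249). Its call was lost without inactivated replicate 2 or 4 or control replicate 3 or 4, with differences of 0.35, 0.36, 0.38 and 0.28. A dim second Sptlc3 probe set, at 0.07 ± 0.12, did not pass (adjusted p = 0.688), and with the mean of both the difference was 0.23 (adjusted p = 0.104). Within arrays Sptlc2 rose more than Sptlc3, by 0.93 (95% interval 0.57 to 1.30; two-sided exact permutation p = 0.00794, adjusted over 24 pairs of related genes to 0.0159). That p is the smallest that the 126 splits of 9 arrays into 5 and 4 can give.

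Ormdl1, a subunit that holds the enzyme in check when ceramide is plentiful, lay at 7.80 to 8.38 in the inactivated group, against 8.31 to 8.64 in the controls, and the groups overlapped. Its fall of 0.37 ± 0.12 (adjusted p = 0.0449) passed narrowly and was lost without any one of inactivated replicates 1, 3 and 4 or control replicates 2, 3 and 4, where the differences were -0.38 to -0.28. It was also lost under quantile, cyclic loess and median scaling (adjusted p = 0.0535, 0.0571 and 0.0703), without moderation (0.0912) and with sex as a covariate (0.0811). Kdsr, which reduces the first product, did not pass on its brightest probe set (-0.19 ± 0.07, adjusted p = 0.0752), while its other 2 probe sets fell by 0.64 and 0.69, and it passed with sex as a covariate (-0.23, adjusted p = 0.0386). Levels ran from 8.31 to 8.50 in the inactivated group, against 8.49 to 8.70 in the controls.

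The 5 ceramide synthases, each of which prefers other acyl chain lengths, divided. Cers3, which attaches the ultra-long chains of barrier ceramides, lay at 10.51, 10.67, 10.43, 10.39 and 10.17 on the inactivated arrays, against 9.16, 8.93, 8.92 and 9.07 on the controls. All inactivated arrays were above all controls, and Cers3 rose 2.66-fold (1.41 ± 0.10, adjusted p = 9.25e-06). Cers6, which makes ceramides with palmitoyl chains, lay at 5.82, 6.29, 6.36, 6.39 and 6.37 in the inactivated group, against 7.54, 7.34, 7.61 and 7.76 in the controls. Cers6 fell 2.48-fold without overlap (-1.31 ± 0.13, adjusted p = 5.8e-05). Cers5, also a synthase for palmitoyl chains, lay at 8.88, 8.01, 7.98, 8.52 and 8.90 in the inactivated group, against 9.30, 10.10, 9.98 and 9.59 in the controls. It fell 2.43-fold (-1.28 ± 0.23, adjusted p = 0.00232), again without overlap but with more spread in both groups than Cers6, and its dim second probe set fell by 0.89. Cers2, the synthase for very long chains in many tissues, was 6.21 to 6.77 in the inactivated group and 6.76 to 7.12 in the controls. Its difference of -0.36 ± 0.12 (adjusted p = 0.0502) missed the threshold narrowly. It passed without inactivated replicate 1 or 5 or control replicate 1, with -0.40, -0.40 and -0.42, and with array weights (adjusted p = 0.0156). Under quantile, cyclic loess and median scaling it was smaller, at -0.26, -0.28 and -0.31, and did not pass (adjusted p = 0.123, 0.116 and 0.0644).

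Compared within arrays, Cers3 differed in its response from each of the other 4 synthases. The gap was 2.72 to Cers6 (95% interval 2.27 to 3.18) and 2.69 to Cers5 (1.84 to 3.54), each with an adjusted exact permutation p = 0.0159. Cers2 differed from Cers5 and Cers6 too, with gaps of 0.92 and 0.95 (adjusted exact permutation p = 0.0159 for both). Cers5 and Cers6 were not told apart by this test, with a gap of 0.03 and an interval of -0.84 to 0.90 that leaves room for unequal change.

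The start regions of Cers3, Cers5, Cers6 and Degs2 are shown because the first and last rose and the middle ones fell. The sequences are RefSeq's, assembly GRCm38.p6, from 250 bases before to 50 after the annotated start, written 5′ to 3′ along the gene's own strand. Capitals mark letters that match 1 of 5 motifs on either strand, with overlapping matches all counted. The GC box was searched as GGGCGG and the CCAAT box by the letters of its name. The TATA box was searched as TATAAA. The E-box was searched as CACGTG. The AP-1 site was searched as TGANTCA. Cers3 is on the plus strand at chr7:66743254-66743553, Cers5 on the minus strand at chr15:99772466-99772765, Cers6 on the plus strand at chr2:68861191-68861490 and Degs2 on the minus strand at chr12:108702257-108702556.
Cers3: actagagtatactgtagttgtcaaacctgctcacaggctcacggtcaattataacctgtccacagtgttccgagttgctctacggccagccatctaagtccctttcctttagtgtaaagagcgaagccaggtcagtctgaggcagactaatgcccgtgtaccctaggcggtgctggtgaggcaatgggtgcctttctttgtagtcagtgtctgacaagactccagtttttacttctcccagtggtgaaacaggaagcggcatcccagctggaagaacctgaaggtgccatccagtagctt
Cers5: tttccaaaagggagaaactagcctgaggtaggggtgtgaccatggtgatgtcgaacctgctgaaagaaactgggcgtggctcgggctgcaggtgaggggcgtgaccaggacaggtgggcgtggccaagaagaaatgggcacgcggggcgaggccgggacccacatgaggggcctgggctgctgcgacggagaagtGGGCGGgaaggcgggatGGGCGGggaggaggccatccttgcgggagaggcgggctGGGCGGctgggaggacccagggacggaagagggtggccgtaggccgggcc
Cers6: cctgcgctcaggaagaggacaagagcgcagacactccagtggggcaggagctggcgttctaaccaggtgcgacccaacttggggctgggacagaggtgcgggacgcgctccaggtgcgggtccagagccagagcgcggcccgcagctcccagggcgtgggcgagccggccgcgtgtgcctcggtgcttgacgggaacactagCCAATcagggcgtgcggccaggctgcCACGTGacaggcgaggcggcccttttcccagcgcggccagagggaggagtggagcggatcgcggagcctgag
Degs2: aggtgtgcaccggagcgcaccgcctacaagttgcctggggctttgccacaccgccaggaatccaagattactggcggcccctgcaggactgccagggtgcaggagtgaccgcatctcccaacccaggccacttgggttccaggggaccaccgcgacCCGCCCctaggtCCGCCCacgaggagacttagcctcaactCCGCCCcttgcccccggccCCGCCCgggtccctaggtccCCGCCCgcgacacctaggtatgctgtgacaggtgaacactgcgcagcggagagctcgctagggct
The window of Cers3 held none of the 5 motifs and was 50.7% G and C. Those of Cers5 and Degs2 held 3 and 5 GC boxes, at 67.7% G and C each, and that of Cers6 a CCAAT box and an E-box. A GC box was found in 28 of the 37 members with a listed promoter (75.7%), in 54.0% of the promoters of 14452 measured genes and in 35.9% of all 27025 promoters (the first listed start of a gene was used). It was found in 7 of the 10 promoters of members that rose and in 11 of the 16 of members that fell. CCAAT boxes were in 43.2% of member promoters, 38.2% of those of measured genes and 37.9% of all. E-boxes were in 21.6%, 9.02% and 7.24%, and AP-1 sites in 8.11%, 6.33% and 7.93%. TATA boxes were in 2.70% (1 member), 9.87% and 14.2%. These matches are descriptions of letters, and nothing about binding was measured.

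Both dihydroceramide desaturases rose, by unequal amounts. Degs2, which also hydroxylates the sphingoid base to give the phytoceramides of skin, lay at 10.02, 9.54, 9.54, 9.63 and 9.20 on the inactivated arrays, against 6.92, 7.64, 7.15 and 7.57 on the controls. The lowest inactivated array was well above the highest control. Degs2 had the largest rise of the 41 members, 4.81-fold (2.27 ± 0.18, adjusted p = 1.56e-05), and only 0.858% of all genes had a larger difference in either direction. Degs1, the general desaturase, was already among the brightest 1% of probe sets, at 11.30 to 11.47 in the inactivated group and 10.81 to 11.00 in the controls. Degs1 was higher by 0.52 ± 0.07 (adjusted p = 0.00036), and by 0.68 on its further probe set. Degs1 changed less than Degs2 within arrays, with a gap of -1.75 (95% interval -2.26 to -1.24; adjusted exact permutation p = 0.0159).

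**Figure D2:**
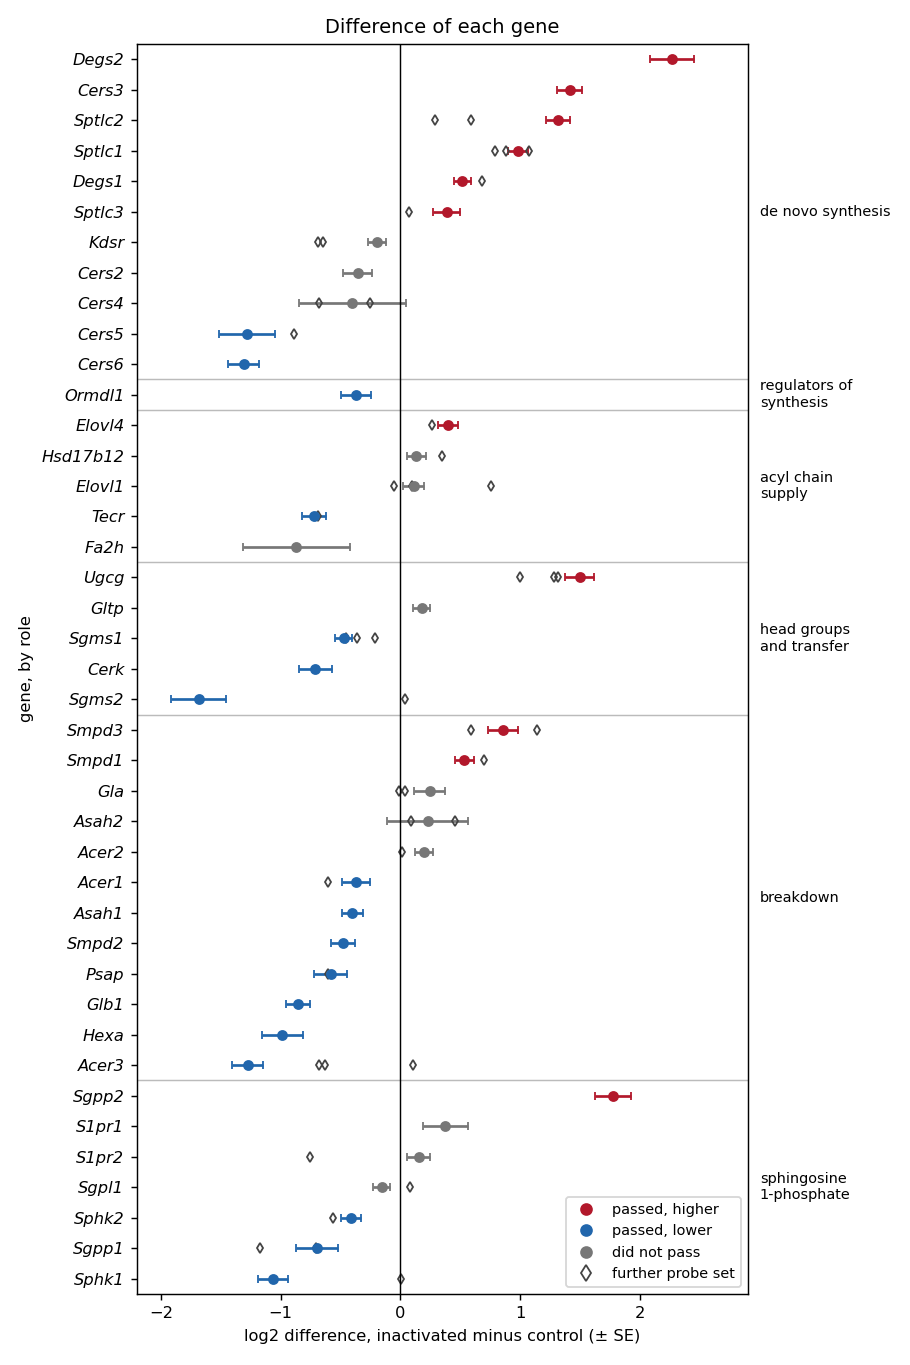
Log2 difference of each gene, inactivated minus control, with the standard error from limma as a bar, grouped by role. Filled points are the probe sets that represent a gene, coloured by call, and open diamonds are its further probe sets, which for Sphk1, Sgms2 and S1pr2 lie far from the filled point.

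Among the 5 genes that supply acyl chains, 1 rose, 1 fell and 3 did not pass. Elovl4, the elongase that makes ultra-long chains for barrier ceramides, was 11.82 to 12.13 in the inactivated group and 11.46 to 11.72 in the controls, without overlap, and the rise was 0.39 ± 0.08 (adjusted p = 0.00572). Tecr, the reductase of the last elongation step, was 9.06 to 9.42 in the inactivated group and 9.76 to 10.09 in the controls. It fell by 0.72 ± 0.10 (adjusted p = 0.000366), and its further probe set fell by 0.69. Elovl1, which feeds Cers2 and Elovl4 with very long chains, and Hsd17b12, the ketoreductase of elongation, did not pass, at 0.11 ± 0.09 and 0.13 ± 0.08. Of 3 further Elovl1 probe sets the dimmest rose by 0.76, and the brighter ones, at 0.10 and -0.06, did not pass. The further probe set of Hsd17b12 rose by 0.35. The unequal change of Elovl1 and Elovl4 did not pass (gap -0.28, 95% interval -0.61 to 0.04; adjusted exact permutation p = 0.0902).

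Cers4 and Fa2h stood apart from the rest in their spread between mice. Cers4, a ceramide synthase known in mice for a role in sebaceous lipid, lay at 9.46, 7.05, 7.66, 8.76 and 9.26 on inactivated replicates 1 to 5, against 8.43, 9.07, 9.07 and 8.80 on the controls. Replicates 1 and 5 of the inactivated group were above every control and replicates 2 and 3 were below every control. Fa2h, the fatty acid 2-hydroxylase, whose loss in mice alters sebum, lay at 9.57, 7.14, 7.81, 8.81 and 9.43 on the same inactivated arrays, against 8.99, 9.54, 9.69 and 9.46 on the controls. The inactivated arrays took the same order for both genes. The SD between inactivated arrays was 1.04 for Cers4 and 1.05 for Fa2h, where the median over the 41 members was 0.19 and over all genes 0.16. Neither difference passed, at -0.40 ± 0.45 (adjusted p = 0.534) and -0.87 ± 0.45 (adjusted p = 0.176), and both further Cers4 probe sets, at -0.68 and -0.26, did not pass.

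Of 6 measured markers of sebocytes, the cells of the oil gland of skin, Elovl3 and Plin2 are set beside these genes, chosen after their values were seen. Elovl3, an elongase of the sebaceous gland, lay at 10.64, 8.15, 8.95, 10.25 and 10.41 on inactivated replicates 1 to 5, against 9.19, 9.88, 9.62 and 9.57 on the controls. That is the order of Cers4 and Fa2h in the inactivated group. Plin2, a lipid droplet protein, lay at 11.32, 9.59, 9.94, 10.92 and 10.85, against 10.30, 10.77, 10.73 and 10.45 on the controls. Plin2 departed from that order, with inactivated replicate 4 above replicate 5. None of the other 4 markers had it in the inactivated group. Cidea was lowest on replicate 3, Mogat1 was lowest on replicate 5 and Scd3 was highest on replicate 4. Mc5r had the same value on replicates 1 and 4. Of the 6, Cidea rose, Scd3 fell and 4 did not pass, and Mc5r and Mogat1 lay below the median level of all probe sets. The linear values of the 6 markers summed to 1617 to 5008 on the inactivated arrays and to 2274 to 3441 on the controls. Cers5 was likewise lower on inactivated replicates 2 and 3 than on the other 3 inactivated arrays. The part of these markers in the values of Cers4, Fa2h and Cers5 was not tested. In RNA of whole epidermal sheets, fewer cells of a type and less RNA per cell cannot be told apart.

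**Figure D3:**
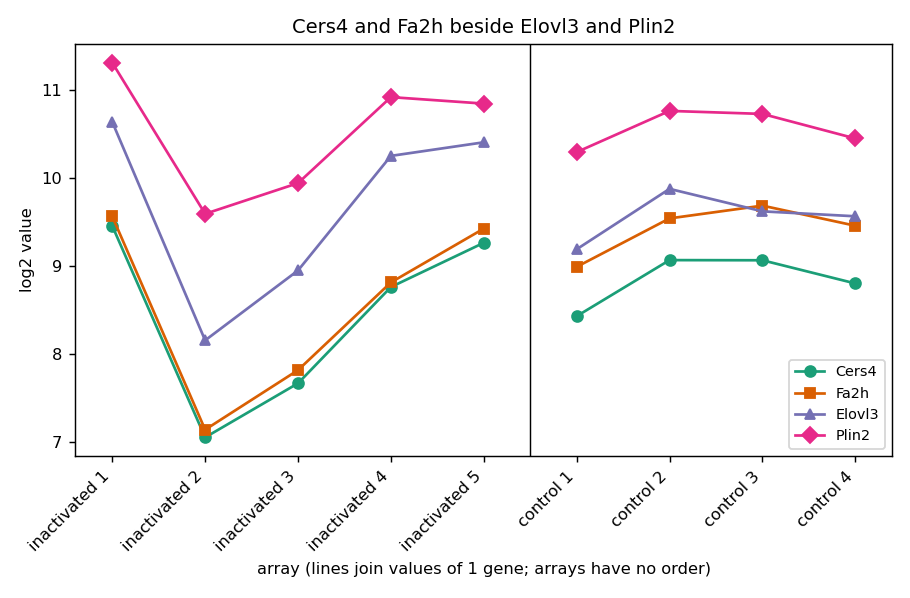
Log2 values of Cers4, Fa2h and the sebocyte markers Elovl3 and Plin2 on each array, inactivated arrays on the left and controls on the right, with lines joining the values of 1 gene. Among the inactivated arrays all 4 genes are highest on replicate 1 and lowest on replicate 2.

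Of 5 members that give ceramide a head group or carry the product, Ugcg rose, Sgms1, Sgms2 and Cerk fell and Gltp did not pass. Ugcg, which adds the glucose that ceramides carry into lamellar bodies, lay at 9.84, 9.94, 10.09, 9.78 and 9.67 in the inactivated group, against 8.66, 8.45, 8.22 and 8.15 in the controls. The groups did not overlap, and Ugcg rose 2.82-fold (1.50 ± 0.12, adjusted p = 1.56e-05). Its 3 further probe sets rose by 1.31, 1.29 and 0.99. Gltp, a carrier of glycolipids that was the brightest member, was 12.18 to 12.45 in the inactivated group and 12.08 to 12.17 in the controls. Although the groups did not overlap, its difference of 0.18 ± 0.07 (adjusted p = 0.0894) did not pass.

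The Golgi sphingomyelin synthase Sgms1 was 8.65 to 8.84 in the inactivated group and 9.13 to 9.29 in the controls. It fell by 0.47 ± 0.07 (adjusted p = 0.000646), and 2 of its 3 further probe sets fell as well. Sgms2, the sphingomyelin synthase of the plasma membrane, lay at 4.23, 2.87, 3.22, 3.63 and 3.79 in the inactivated group, against 5.06, 5.41, 5.19 and 5.27 in the controls. The fitted difference was -1.68 ± 0.23 (adjusted p = 0.000401). The inactivated values lie below the array medians and were not shown to be above background, so no fold is given, and a further Sgms2 probe set, at 0.04 ± 0.11, did not pass. On the probe sets that stand for the genes, Sgms2 fell more than Sgms1 within arrays. The gap was 1.21 (95% interval 0.48 to 1.94, adjusted exact permutation p = 0.0272). It rests on the dim Sgms2 values and was not tested on the further Sgms2 probe set. Cerk, the kinase that makes ceramide 1-phosphate, was 7.13 to 7.67 in the inactivated group and 7.92 to 8.44 in the controls. It fell by 0.71 ± 0.14 (adjusted p = 0.00328).

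Of the 12 breakdown genes, 2 rose, 7 fell and 3 did not pass, with a median difference of -0.39. The sphingomyelinases, which return sphingomyelin to ceramide, were split. Smpd1, the acid form that also acts in the secreted barrier lipid, was 10.73 to 11.08 in the inactivated group and 10.41 to 10.42 in the controls. Smpd1 rose by 0.53 ± 0.08 (adjusted p = 0.000615). Smpd3, a neutral form, lay at 9.06, 9.70, 9.66, 9.38 and 9.30 in the inactivated group, against 8.50, 8.53, 8.60 and 8.61 in the controls, and rose by 0.86 ± 0.12 (adjusted p = 0.000596). Its 2 further probe sets rose by 0.59 and 1.14. Smpd2, another neutral form, was 7.01 to 7.47 in the inactivated group and 7.61 to 7.79 in the controls and fell by 0.48 ± 0.10 (adjusted p = 0.00575). Within arrays the gap was 1.01 for Smpd1 minus Smpd2 and -1.34 for Smpd2 minus Smpd3 (adjusted exact permutation p = 0.0159 for both). Smpd1 and Smpd3 were not separated at the adjusted threshold (gap -0.32, 95% interval -0.61 to -0.04; adjusted exact permutation p = 0.0635).

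Ceramidases, which split ceramide into sphingosine and a fatty acid, fell in 3 of 5 members. Acer3, an alkaline ceramidase, lay at 7.08, 6.58, 6.88, 7.23 and 7.16 in the inactivated group, against 8.14, 8.28, 8.41 and 8.20 in the controls. The groups did not overlap, and Acer3 fell 2.42-fold (-1.27 ± 0.13, adjusted p = 6.56e-05). Of its 3 further probe sets 2 fell, by 0.68 and 0.63, and the dimmest, at 0.11, did not pass. Acer1, the alkaline ceramidase of epidermis, was 9.50 to 10.03 in the inactivated group and 10.12 to 10.18 in the controls. It fell by 0.37 ± 0.12 (adjusted p = 0.0352), a call that was lost without inactivated replicate 1, 3 or 4 or any single control (-0.39 to -0.30), under median scaling (adjusted p = 0.0622), without moderation (0.0745) and with sex as a covariate (0.0565), while its other probe set fell by 0.61 ± 0.12 (adjusted p = 0.00403). Acer2, the Golgi form, was 6.73 to 6.98 in the inactivated group and 6.53 to 6.78 in the controls and did not pass (0.20 ± 0.08, adjusted p = 0.0836). It did pass as higher under quantile, cyclic loess and median scaling (adjusted p = 0.0192, 0.0299 and 0.0330) and with array weights (0.0445). All 3 pairs of these genes differed in response, with gaps of 0.90 between Acer1 and Acer3, 1.47 between Acer2 and Acer3 and -0.57 between Acer1 and Acer2 (adjusted exact permutation p = 0.0159, 0.0159 and 0.0357).

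The acid ceramidase Asah1, a lysosomal enzyme, was 8.55 to 8.99 in the inactivated group and 9.15 to 9.24 in the controls and fell by 0.40 ± 0.09 (adjusted p = 0.00642). Asah2, the neutral ceramidase, lay at 6.59, 8.37, 8.58, 8.03 and 8.14 in the inactivated group, against 7.95, 7.76, 7.68 and 7.47 in the controls. Inactivated replicate 1 was below every control and the other 4 inactivated arrays were above every control. The difference of 0.23 ± 0.34 (adjusted p = 0.650) did not pass, and without inactivated replicate 1 it was 0.56 and passed (adjusted p = 0.0140).

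Of 4 lysosomal genes that take glycosphingolipids apart, 3 fell and 1 did not pass. Hexa, the hexosaminidase alpha subunit that trims the ganglioside GM2, lay at 8.78, 8.01, 8.18, 8.44 and 8.44 in the inactivated group, against 9.03, 9.20, 9.58 and 9.62 in the controls. Hexa fell by 0.99 ± 0.17 (adjusted p = 0.00159) without overlap. Glb1, the beta-galactosidase, was 5.36 to 5.81 in the inactivated group and 6.38 to 6.65 in the controls and fell by 0.86 ± 0.10 (adjusted p = 0.000144). Psap, the precursor of the saposins that present lipids to these enzymes, was 9.68 to 10.45 in the inactivated group and 10.66 to 10.85 in the controls. It fell by 0.58 ± 0.14 (adjusted p = 0.0102), as did its further probe set by 0.60. Gla, the alpha-galactosidase, was dim (4.13 to 4.77 in the inactivated group, 4.02 to 4.36 in the controls) and did not pass (0.24 ± 0.13, adjusted p = 0.177). Macrophages are rich in such enzymes, and of 11 measured macrophage markers 1 rose, 6 fell and 4 did not pass. Their linear values summed to 4037 to 7472 on the inactivated arrays and 7452 to 9326 on the controls, with no marker below the median level of all probe sets. Their part in the fall of the lysosomal genes was not tested.

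**Figure D4:**
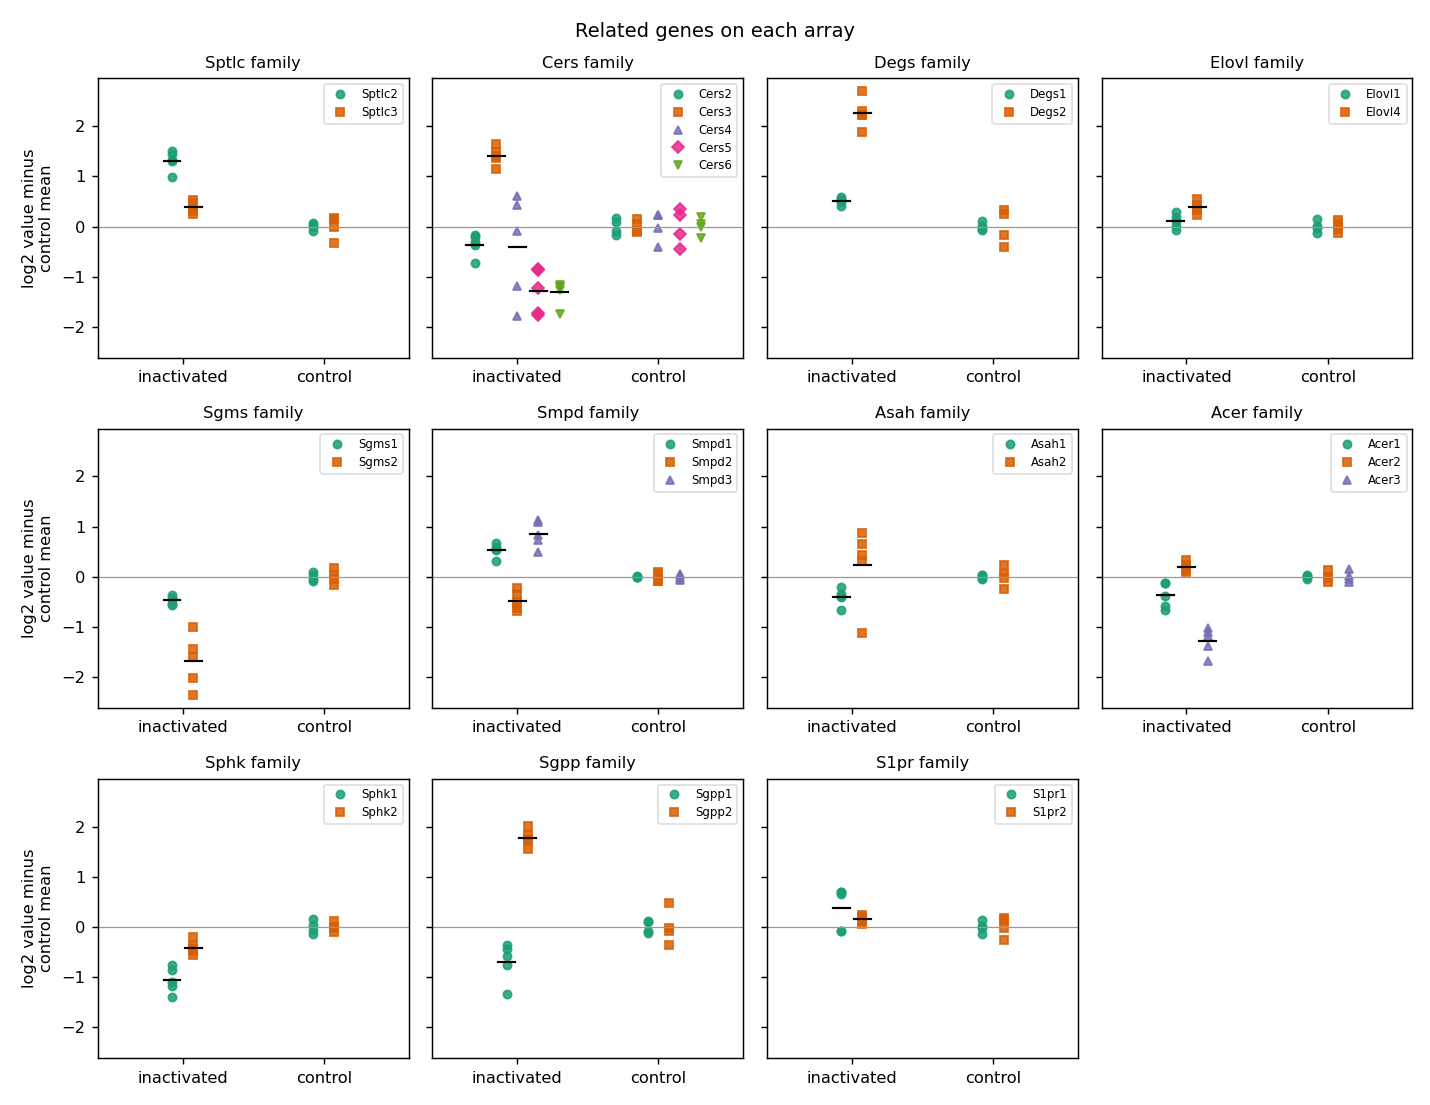
Log2 value minus the gene's mean over the 4 control arrays, for related genes of 11 families, with 1 point per array, inactivated arrays on the left and controls on the right, and a black bar at the mean of the inactivated arrays. Cers3, Sgpp2 and the pair Smpd1 and Smpd3 lie above 0 in the inactivated group while Cers5 and Cers6, Sgpp1 and Smpd2 lie below it.

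Of 7 sphingosine 1-phosphate genes 1 rose, 3 fell and 3 did not pass, with a median of -0.16. These counts lie near the shares of all genes above the median level of all probe sets (18.8% higher and 27.4% lower). Sphk1, the kinase that makes the lipid on demand, lay at 8.75, 8.50, 8.44, 8.22 and 8.85 in the inactivated group, against 9.77, 9.66, 9.56 and 9.48 in the controls. All inactivated arrays were below all controls, and Sphk1 fell 2.09-fold (-1.06 ± 0.13, adjusted p = 0.000169). A dim second Sphk1 probe set, at 4.15 in both groups, did not differ by more than its error (0.0015 ± 0.12). Sphk2, the other kinase, was 7.14 to 7.51 in the inactivated group and 7.60 to 7.82 in the controls. It fell by 0.41 ± 0.09 (adjusted p = 0.00472), less than Sphk1 by a gap of -0.65 (95% interval -0.98 to -0.31; adjusted exact permutation p = 0.0272).

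The phosphatases that turn sphingosine 1-phosphate back into sphingosine moved in opposite directions. Sgpp2 lay at 9.18, 9.07, 9.10, 9.35 and 8.91 in the inactivated group, against 6.99, 7.81, 7.33 and 7.26 in the controls. It rose 3.42-fold (1.78 ± 0.15, adjusted p = 2.16e-05), and the lowest inactivated array was above the highest control. Sgpp1 lay at 8.89, 9.79, 9.48, 9.67 and 9.88 in the inactivated group, against 10.16, 10.11, 10.33 and 10.36 in the controls. It fell by 0.70 ± 0.18 (adjusted p = 0.0138), and its 2 further probe sets fell by 0.71 and 1.17, though without moderation the adjusted p was 0.0506. The gap of -2.47 between them had a 95% interval of -3.18 to -1.76 (adjusted exact permutation p = 0.0159). Sgpl1, the lyase that ends the pathway, was 9.48 to 9.75 in the inactivated group and 9.72 to 9.80 in the controls and did not pass (-0.16 ± 0.07, adjusted p = 0.120).

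Of the receptors, S1pr1, found on endothelial cells and lymphocytes, lay at 5.27, 4.50, 5.23, 5.28 and 4.49 in the inactivated group, against 4.44, 4.71, 4.60 and 4.56 in the controls. Inactivated replicates 1, 3 and 4 were above every control and the other 2 were not, and the difference of 0.37 ± 0.19 (adjusted p = 0.159) did not pass. The 10 endothelial markers summed to 373.7 to 606.0 in linear values on the inactivated arrays and to 438.1 to 595.9 on the controls, with 1 of them higher, 1 lower and 8 not passing. Of 6 T cell markers 4 were lower and 2 did not pass. Their part in S1pr1 was not tested. The 2 probe sets of S1pr2 disagreed. The brighter, at 0.15 ± 0.10 (adjusted p = 0.263), did not pass, and the other was lower, at -0.76 ± 0.12 (adjusted p = 0.00101). With the mean of both S1pr2 read -0.30 (adjusted p = 0.0153). Since the reading depends on the probe set, no direction is given for it.

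Across 24 pairs of related members, 16 changed unequally at an adjusted exact permutation p of at most 0.05, and in 5 of these 1 member rose and the other fell. The 5 are Cers3 with Cers5, Cers3 with Cers6, Smpd1 with Smpd2, Smpd2 with Smpd3, and Sgpp1 with Sgpp2. The members of a family share no probe set here, and each pair compares changes and not levels. Pairs of unrelated genes were not tested in this way, and 34.4% of all genes changed. The count of 16 is thus not shown to be particular to these families. It includes Sgms1 with Sgms2, which rests on dim Sgms2 values.

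**Figure D5:**
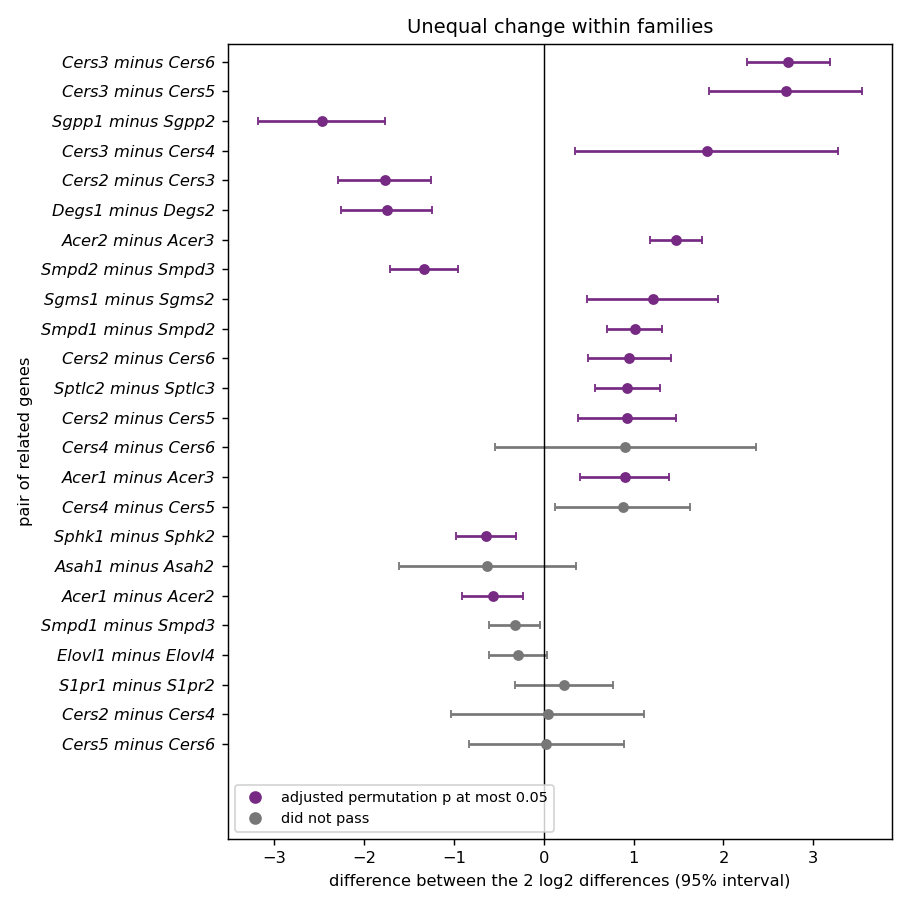
Difference between the log2 changes of 2 related genes (first minus second, inactivated against control, within arrays) for 24 pairs, with 95% intervals and ordered by size. Pairs of Cers3 with Cers5 or Cers6 and of Sgpp1 with Sgpp2 lie farthest from 0, and 8 pairs, in grey, did not pass.

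The 28 passing members were also followed on single arrays and within sexes. Inactivated replicate 5 was the array nearest the control mean for 13 of them (46.4%), and for 40.9% of all genes that passed. Without it 11 members rose and 18 fell. All 28 kept their sign among females and among males, though the females include 1 control and the members had been chosen as passing on the same arrays. With sex as a covariate 11 members were higher and 16 lower, as Ormdl1 and Acer1 lost their calls and Kdsr gained one. Members with more than 1 probe set numbered 27. Of the 29 further probe sets of members that passed, 26 had the same sign and 23 passed in the same direction, and none passed in the opposite one.

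Other genes of these pathways were taken from 5 lists, and of their 70 measured genes 24 rose, 16 fell and 30 did not pass, with a median of 0.05. Of all genes 15.5% were higher and 18.9% lower by the same rule. Among genes above the median level of all probe sets the shares were 18.8% and 27.4%. The counts of each list here are to be read beside these shares. The genes that hydroxylate, acylate and export acylceramide or serve its use were higher, with 9 of 11 risen, none fallen and a median of 0.80. Among them the dehydrogenase Sdr9c7 rose by 1.15 ± 0.09, the cholesterol sulfotransferase Sult2b1 by 1.11 ± 0.11 and the omega-hydroxylase Cyp4f39 by 0.61 ± 0.06. Of 16 other synthesis and chain enzymes 4 rose and 5 fell, with Elovl7 up by 0.58 ± 0.08 and the elongase Elovl5 and the dehydratase Hacd4 down by 1.28 ± 0.21 and 1.42 ± 0.21.

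Other head group and transfer genes rose in 3 and fell in 5 of 14 members. Gal3st1, which makes sulfatide, fell by 2.21 ± 0.21, and St8sia1, a ganglioside sialyltransferase, fell by 1.24 ± 0.18. St3gal5, which makes the ganglioside GM3, rose by 0.48 ± 0.07. St8sia1 averaged 3.81 in the inactivated group and St3gal5 4.32 in the controls. Both levels are below the array medians and were not shown to be above background. Of 16 other breakdown genes 6 rose and 2 fell. The sialidase Neu2 averaged 7.08 ± 0.46 in the inactivated group and 4.14 ± 0.51 in the controls (SD, n = 5 and 4), higher by 2.94 ± 0.27. The control level is near the array medians and was not shown to be above background, so no fold is given. The GM2 activator Gm2a rose by 0.98 ± 0.09, whereas Hexa, the subunit it assists, fell, and the glucosylceramidase Gba2 rose by 0.76 ± 0.08. Of 13 other sphingosine 1-phosphate genes 2 rose and 4 fell, among them the receptor S1pr5 (-1.46 ± 0.25), the lipid phosphatase Plpp3 (-1.02 ± 0.14) and the lysosomal transporter Spns1 (-0.61 ± 0.09). The 15 genes named here from the 5 lists had limma adjusted p of at most 0.00174, the value of S1pr5.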

How the data were processed

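Total RNA of epidermal sheets was labelled at the 3′ end and hybridised to 9 Affymetrix mouse arrays, per the labels' protocols. The authors deposited log2 values for 45037 probe sets, and the submitters' processing notes name affy without a version. No source used here states the background correction or the normalization. The log base was read from the highest values, which lie above the natural logarithm of the scanner's range. Probe sets numbered 34945 with 1 gene symbol, 932 with several and 9160 with none listed.

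Each probe set was tested for a difference between groups with limma 3.58.1 in R 4.3.3 (lmFit and eBayes, two-sided, no covariate, 7 residual degrees of freedom), with Benjamini-Hochberg adjustment over all probe sets, a threshold of 0.05 and no filter. A difference is inactivated minus control on the log2 scale with its standard error. Pairs of related members were compared by the within-array difference of their log2 values, with an exact permutation test over 126 splits, adjusted over 24 pairs, and intervals from the pooled variance. Members, lists, pairs and motifs were chosen with earlier results of these data known. Named genes are every measured member, Alox12b and up to 3 genes of each pathway list with the lowest adjusted p among those that passed. Marker genes are named where tissue identity needs them. Elovl3, Plin2, Cidea, Scd3, Mc5r, Mogat1, S100a8, S100a9, Cxcr2 and Mpo were named after their values were seen. The steps were tested on simulated arrays. Replicate numbers did not pair the arrays, with correlations of -0.268 to 0.078 between same-numbered arrays. The labels call the samples biological replicates.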

Additional observations from a re-analysis of the deposited data

Results flagged for a closer look

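Among 82 sets of replicate values, 1 for each of the 41 members in each group, 2 held an array far from its fellows by Dixon's criterion, where chance gives about 1 in 20. Both were inactivated replicate 1. Cers6 was 5.82 there and 6.29 to 6.39 on the other inactivated arrays. Asah2 was 6.59 there and 8.03 to 8.58 on the other inactivated arrays, and it passed as higher without that array. In no member did the difference between groups depend on sex at the adjusted threshold (limma interaction term, lowest adjusted p = 0.881), and 2 members had an unadjusted p of at most 0.05. With 1 control female this test has little precision.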

How the results depend on the processing

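Over 22 alternatives, 22 of the 28 passing members kept their call and direction in every one. The other 6 (Sptlc3, Ormdl1, Psap, Acer1, Sgpp1, Sphk1) lost the call in at least 1. Without probe sets named _x_at, _s_at or _a_at, Sphk1 read 0.0015 and S1pr2 -0.76, and with the mean of all probe sets S1pr2 read -0.30, since other probe sets then represent these genes. Of the 13 members that did not pass, 8 passed in some alternative with their sign kept. S1pr2 also passed, as lower, without those probe sets and with the mean of all (limma adjusted p = 0.000998 and 0.0153). Members higher ranged from 10 to 12 and members lower from 15 to 18 when single arrays were left out, and pairs that differ from 13 to 18. At a threshold of 0.01, 1526 genes were higher and 2179 lower. There 0 pairs passed the exact permutation test, whose smallest adjusted p is 0.0159; all 16 pairs had an unadjusted p under 0.05. With the replicate number as a block, inactivated replicate 5 was left out, since no control shares its number. Then 11 members were higher and 17 lower, against 11 and 18 without that array and without a block. Pairs were tested there with limma and 17 differed, a count not comparable with that of the exact permutation test. Signal over background could not be judged, since no detection calls were used, which limits the dimmest members, Sgms2 and Gla.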
